A study of Mus musculus with 6 samples.

Results

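The abundant processed pseudogenes of mouse haematopoietic stem cells were selected on their level: a gene entered the set when the deposited table typed it as a processed pseudogene and its mean over the 6 libraries was at least 10 TPM. TPM is the share of a transcript in its library, corrected for length. This rule was met by 381 of the 10003 processed pseudogenes, in a table of 55471 gene IDs. A further 846 had a mean of 1 to under 10 TPM, and 6350 were listed at 0 in all 6 libraries. The rule used the mean over both groups and not their difference, so levels are given as a description and the induced and uninduced libraries were compared by test. Some members, such as Gm14567, Gm16580, Pcna-ps2, Hspd1-ps3, Gm4459, Gm6594, Gm6363 and Gm43802, reached that mean only through the group in which they were high. All 381 members passed the filter of the test, a mean of at least 1 TPM.

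The libraries came from haematopoietic stem cells sorted as Lin- Kit+ Sca1+ CD48- CD150+ cells of mice with the genotype ETV6-RUNX1, a fusion gene known from childhood B-cell precursor leukaemia. Cells were taken from uninduced mice (n = 3 libraries) or from mice given doxycycline food for 2 weeks to induce the fusion (n = 3 libraries). Mice of both groups carried the ETV6-RUNX1 genotype, and only the induced group received doxycycline, so induction of the fusion and exposure to the drug cannot be told apart. The labels give no strain, age, promoter of the transgene or number of animals per library, and no label ties same-numbered libraries to each other. P-values therefore measure the spread between these libraries, which may be technical.

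Processed pseudogenes are copies of messenger RNAs that were reverse transcribed and inserted back into the genome, in mammals mostly by the LINE-1 machinery. They lack the introns and the promoter of the parent gene, and most have lost an intact reading frame. Genes that are highly expressed in the germ line, those of ribosomal proteins above all, have left many such copies. A young copy still resembles its parent closely, so a short read from the parent can match the copy equally well. The value of a near-identical copy is therefore uncertain: with the processing used, a read from the parent and a read from the copy may not be distinguishable.

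Sequence showed how close the copies in this set were to their parents. A few pairs are printed because the results below turn on them: the pseudogene comes first, then the protein-coding transcript that matched it best. Each window is the 100 bases of the aligned coding region with the most differing bases, written 5′ to 3′ on the strand of the gene, and capitals mark the bases that differ. Coordinates are GRCm38, as are those of the GENCODE M21 annotation from which the sequences were read.
Gm15459 (chr5:5783393-5783492, minus strand): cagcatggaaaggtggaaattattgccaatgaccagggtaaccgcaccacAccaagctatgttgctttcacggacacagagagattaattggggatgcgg
Hspa8: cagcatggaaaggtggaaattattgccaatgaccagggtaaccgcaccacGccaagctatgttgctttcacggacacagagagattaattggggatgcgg
Gm14567 (chrX:38969817-38969916, plus strand): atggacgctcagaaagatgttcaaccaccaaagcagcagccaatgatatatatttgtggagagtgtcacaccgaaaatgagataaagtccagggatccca
Polr2k: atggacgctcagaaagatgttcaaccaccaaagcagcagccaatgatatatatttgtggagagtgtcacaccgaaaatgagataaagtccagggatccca
Pcna-ps2 (chr19:9283489-9283588, plus strand): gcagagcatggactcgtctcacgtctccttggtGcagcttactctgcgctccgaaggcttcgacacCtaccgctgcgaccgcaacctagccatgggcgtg
Pcna: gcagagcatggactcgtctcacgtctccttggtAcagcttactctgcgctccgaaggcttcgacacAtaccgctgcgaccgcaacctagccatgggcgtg
Gm16378 (chr8:122841950-122842049, plus strand): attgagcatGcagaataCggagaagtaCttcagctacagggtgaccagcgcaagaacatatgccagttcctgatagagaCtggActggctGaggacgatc
Eif1: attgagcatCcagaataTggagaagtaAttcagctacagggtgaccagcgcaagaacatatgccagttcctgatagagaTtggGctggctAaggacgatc
The windows of Gm14567 and Polr2k held no differing base, and those of Gm15459 and Hspa8 held 1. Pcna-ps2 and Pcna differed at 2 bases, and Gm16378 and Eif1 at 6. A 100-base read, the length sequenced here from each end of a fragment, that fell on such a window would carry only those bases to tell copy from parent.

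A parent was found by alignment for 379 of the 381 members, and the exceptions were Gm4540 and Gm9169. The parents were 242 different protein-coding genes. Of the 106 members whose symbol names a parent 103 had a protein-coding gene of that name in the table, and alignment returned that same gene for all 103. The remaining members mostly carried Gm numbers (266 of 381). In GENCODE M21 377 members had a single exon, and the median transcript length was 492 bases (75 to 2653). The members lay on 20 chromosomes, with 27 of them on the X chromosome.

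Identity to the parent was high among the members and lower at each lower level of expression. The median identity was 99.1% for the 379 aligned members, 97.6% for processed pseudogenes of 1 to under 10 TPM, 93.0% for those above 0 and under 1 TPM, and 83.6% for those listed at 0. Identity of at least 99% was found in 54.1% of the aligned members and in 0.728% of the aligned pseudogenes listed at 0. In all, 54 members were identical to the parent over the aligned length, and 14 were under 95% identical. These values describe groups that were formed by level, and no test was made of them.

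**Figure D1:**
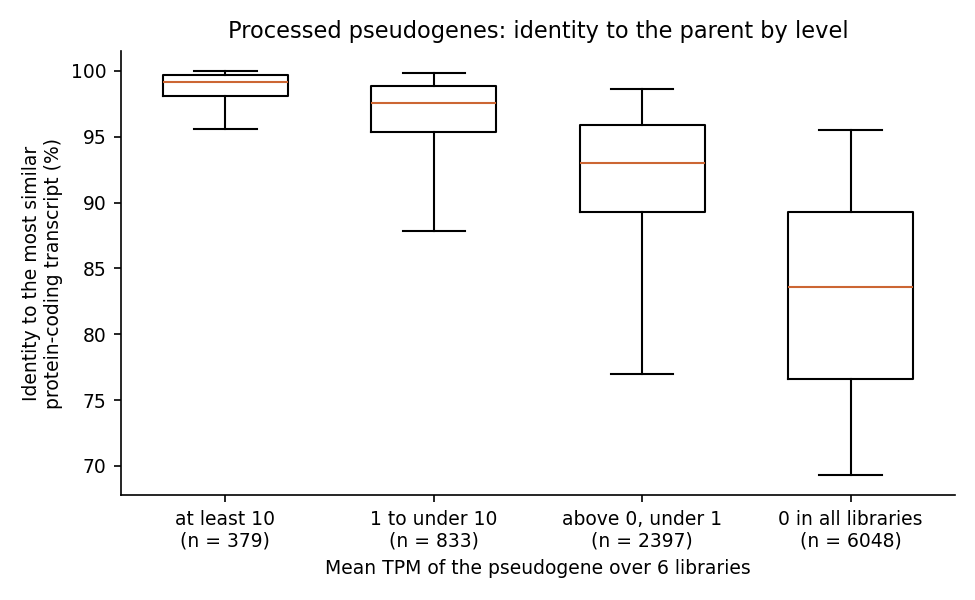
Identity of processed pseudogenes to the most similar protein-coding transcript (percent, vertical axis) by mean TPM over the 6 libraries (horizontal axis). Boxes show the median and quartiles and whiskers the 5th to 95th percentile. Median identity falls from 99.1% in the 379 members to 83.6% in the 6048 aligned pseudogenes listed at 0.

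The share of a member's sequence that other annotated transcripts also hold was counted in stretches of 100 bases. At the median, 53.0% of a member's 100-base stretches occurred exactly in a transcript of another gene that does not overlap it, compared with 15.8% for processed pseudogenes of 1 to under 10 TPM. All stretches were shared in 55 members and none in 22, and 2 members were shorter than 100 bases. Gm6594, a copy of the nucleosome-binding protein gene Hmgn2, was among the 22 with no shared stretch.

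Ribosomal protein copies made up most of the signal. The members' mean levels ran from 10.02 to 1060 TPM with a median of 26.6 TPM, and 63 were at 100 TPM or more. Copies of ribosomal protein genes were 168 members (44.1%), held 70.0% of the members' summed TPM, and were 18 of the 20 highest. Among the 8 highest were, in falling order, Rps23-ps1, Tpt1-ps3, Gm9794 (a copy of Rpl23), Rpl36a-ps2, Rpl19-ps11, Gm4149 (Rpl37a) and Rpl14-ps1. Of these 8, Tpt1-ps3 alone is not a ribosomal protein copy: its parent, Tpt1, encodes the translationally controlled tumour protein.

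Members stood lower than their parents in most pairs. Over the 378 pairs whose parent also had a mean of at least 1 TPM, the median member was at 28.8% of its parent's TPM, and 69 members were above their parent. The median was 88.0% for the 54 members identical to the parent, 32.1% for the 239 with 98 to under 100% identity, and 9.75% for the 85 under 98%. As examples, Rps23-ps1 had a mean of 1060 TPM and its identical parent Rps23 877 TPM, whereas Gm6477 was at 6.32% of its 96.0% identical parent Npm1. The 4 copies of Rpl17, a family chosen after its values were seen, summed to 523 TPM while Rpl17 itself was at 12.0 TPM.

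**Figure D2:**
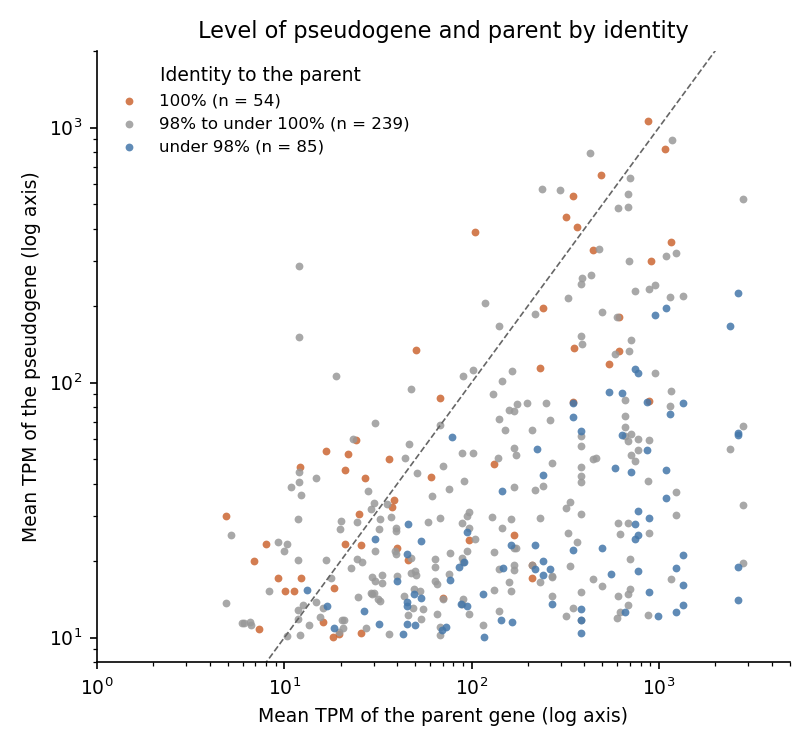
Mean TPM of 378 members (vertical axis, log scale) against mean TPM of the parent gene (horizontal axis, log scale), coloured by identity to the parent. The dashed line marks equal levels. Members identical to the parent lie nearest the line (median 88.0% of the parent's TPM), and all but 1 of the 85 under 98% identical lie below it (median 9.75%).

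The members' values lay close to the selection limit in many cases. Just inside it were Gm8806 at 10.02 TPM, Mrpl23-ps1 at 10.05 and Gm2810 at 10.18. Just outside were Gm14176 at 9.97 TPM, Gm6395 at 9.96 and Gm7846 at 9.94.

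Together the members took up a smaller share of the induced libraries. Their summed level was 34158, 37288 and 30852 TPM in the 3 uninduced libraries and 23421, 21169 and 24363 TPM in the 3 induced libraries. Every induced library was below every uninduced one. This was 3.41% ± 0.322 of all TPM in uninduced and 2.30% ± 0.164 in induced cells (SD, n = 3 each), a log2 difference of -0.567. Nuclear protein-coding genes moved alongside, from 29.8% ± 3.13 to 21.9% ± 1.35 of TPM. When each library was first rescaled by its median ratio to all libraries, the log2 difference of the sums was -0.16. Since TPM is a share, fewer cells with a transcript, less of it per cell and more of other RNA in the library cannot be told apart.

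Of the 381 members 82 were called lower in induced cells and 2 higher (limma on log2(TPM + 1), Benjamini-Hochberg adjusted p under 0.05 over 13470 genes). That is 21.5% lower and 0.525% higher, beside 10.2% lower and 1.29% higher among all genes tested. After median-of-ratios scaling 27 members were lower and 3 higher, beside 3.1% lower and 2.88% higher among all genes, and the 27 were all among the 82. Without induced replicate 2 the members called numbered 36 in place of 84, without uninduced replicate 2 or induced replicate 1 52, and with no variance trend 28. The third higher member after scaling was Gm6055, a copy of the autophagy gene Map1lc3b. In 186 members every induced library was below every uninduced one, and in 4 every induced library was above, beside 28.2% and 4.83% of all genes.

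The median log2 change of the members was -0.55, and that of all genes -0.35. Below 0 were 349 members, with 32 above. Median-of-ratios scaling moved the median of all genes to 0.0033 and that of the members to -0.16, so the members' median minus that of all genes was -0.20 on the deposited and -0.16 on the rescaled values. Processed pseudogenes of 1 to under 10 TPM had a median of -0.41, with 26 lower and 1 higher of 846, and after scaling -0.13, with 6 lower and 1 higher. Other types of pseudogene had a median of -0.30, with 15 lower and 2 higher of 154, and after scaling -0.02, with 4 lower and 4 higher. Protein-coding genes held to the same minimum of 10 TPM had a median of -0.41, with 907 lower (16.8%) and 77 higher of 5410, and after scaling -0.02, with 260 lower and 238 higher.

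**Figure D3:**
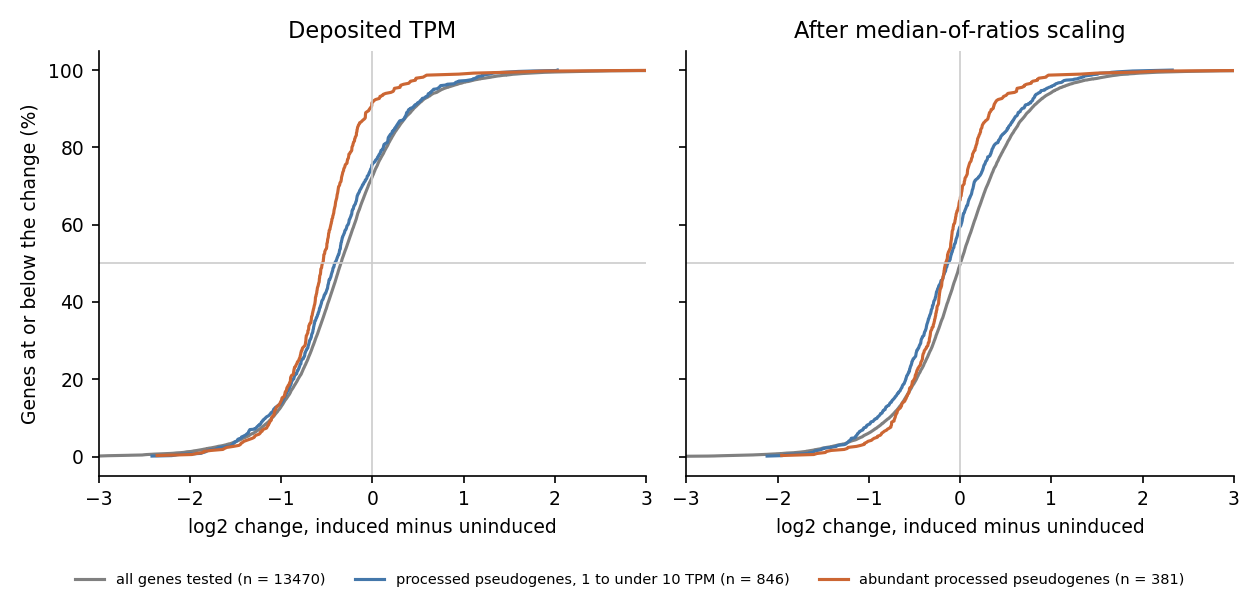
Cumulative share of genes (percent, vertical axis) by log2 change of induced minus uninduced libraries (horizontal axis), on the deposited TPM (left) and after median-of-ratios scaling (right), for all genes, processed pseudogenes of 1 to under 10 TPM and the members, within 3 log2 units of 0. The curve of the 381 members crosses 50% at -0.55 on the left and -0.16 on the right, and that of all 13470 genes at -0.35 and 0.0033.

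Calls were more frequent at higher levels, among the members as among all genes. They numbered 12 lower of 146 members (8.22%) at 10 to under 20 TPM, 36 of 172 (20.9%) at 20 to under 100 TPM, and 34 of 63 (54.0%) at 100 TPM or more. Of all genes at these levels 9.67%, 19.2% and 34.6% were lower, and this difference was not tested. The median changes were -0.55, -0.51 and -0.61 for the members and -0.38, -0.41 and -0.41 for all genes.

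GC content bore little relation to the change. The members' median GC content was 50% (35.4 to 65.8%), against 46.3% for all genes tested. Spearman's rho between GC content and log2 change was -0.02 over the members and -0.01 over all genes. These describe genes measured in the same libraries, so they carry no test. Split by GC content into low, middle and high groups of 127 members each, 21, 29 and 32 were lower on the deposited scale and 10, 10 and 7 after median-of-ratios scaling, beside 10.2% and 3.1% of all genes.

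Copies of large ribosomal subunit genes had a median change close to that of all members. Of 105 such copies 23 were lower and none higher, with a median change of -0.56, and after median-of-ratios scaling 4 were lower. These are 21.9% and 3.81%, beside 10.2% and 3.1% of all genes. Of the 63 copies of small subunit genes 13 were lower and none higher on the deposited scale, with a median of -0.49, and none was called after scaling. The 77 cytosolic ribosomal protein genes themselves, which build the ribosome, had 46 lower and none higher and a median of -0.61. After scaling 8 of these 77 were lower and 1 was higher.

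Among the 7 most abundant copies named above, 4 passed the test. Rpl36a-ps2, which lies in an intron of Ddah1 on the same strand and is identical to Rpl36a, had 849, 982 and 773 TPM in uninduced and 467, 330 and 510 TPM in induced libraries. The groups did not overlap, and the log2 change was -1.01 (SE 0.180, adjusted p = 0.00821). Of these 4 it alone was also called after median-of-ratios scaling (-0.60, limma adjusted p = 0.0286). The call ended with no expression filter or no variance trend, where the adjusted p reached 0.0661. Ddah1 itself had a mean of 0.0490 TPM.

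Gm9794, the Rpl23 copy, was at 938, 1098 and 868 TPM in uninduced and 627, 614 and 642 TPM in induced libraries. Its change of -0.62 (SE 0.132, limma adjusted p = 0.0172) was close to that of Rpl23, at -0.53. Rpl14-ps1 changed by -0.70 and Rpl19-ps11 by -0.61 (limma adjusted p = 0.0123 and 0.0416). Gm9794, Rpl14-ps1 and Rpl19-ps11 passed the test on the deposited scale but not after median-of-ratios scaling, where their changes were -0.21, -0.29 and -0.20, with limma adjusted p from 0.112 to 0.331.

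Having no variance trend, or leaving out a single library, also ended the calls of these 3, as did having no expression filter for Gm9794 and Rpl19-ps11. Rpl19-ps11 was no longer called without any 1 of uninduced replicates 1 and 2 or the 3 induced libraries, Gm9794 without any 1 of the 3 induced libraries, and Rpl14-ps1 without induced replicates 1 or 2. The other 3 did not pass: Rps23-ps1 had a change of -0.35 (limma adjusted p = 0.113), Tpt1-ps3 of -0.36 (0.095) and Gm4149 of -0.39 (0.0827). Each of these 3 changes turned to between 0.02 and 0.05 after median-of-ratios scaling.

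The chromatin and nuclear class had the lowest median change of the parent classes, with the cytoskeleton and protein folding class next at -0.86. The chromatin and nuclear class holds copies of genes for high-mobility-group proteins, histone variants, hnRNP RNA-binding proteins, nucleophosmin and prothymosin alpha. Of its 27 members 13 were lower and none higher, with a median of -0.90, and after median-of-ratios scaling 9 were lower with a median of -0.53. These are 48.1% and 33.3%, beside 10.2% and 3.1% of all genes. Summed, the 27 members stood at 1792 ± 226 TPM in uninduced and 961 ± 92.5 TPM in induced libraries (SD, n = 3 each).

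All 3 copies of Npm1, the gene of the nucleolar chaperone nucleophosmin, were lower. Gm9118 fell by 1.15, Gm14681 by 1.28 and Gm6477 by 1.62 on the log2 scale, and Npm1 fell by 1.29 (limma adjusted p = 0.00491, 0.00466, 0.00537 and 0.00212). Gm6477 had 35.7, 41.0 and 24.7 TPM in uninduced and 8.76, 11.9 and 9.84 TPM in induced libraries, with no overlap. It shares 12.2% of its 100-base stretches with other transcripts, and Gm14681 shares 56.1%.

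Copies of Hnrnpa3, which encodes an RNA-binding protein of nuclear ribonucleoprotein particles, numbered 4, of which 3 were lower. The lowest of them, Gm6363, had 15.2, 23.4 and 16.6 TPM in uninduced and 6.34, 5.43 and 4.33 TPM in induced libraries. Its change was -1.60 (SE 0.286, limma adjusted p = 0.00829), beside -1.93 for Hnrnpa3. Gm6363 lies in an intron of Hlcs on the same strand, and Hlcs, at a mean of 4.75 TPM, had a change of 0.35 (limma adjusted p = 0.62). Other lower members of the class included Gm4739, a copy of Hmgb2 (-1.45), Gm8203, of H2afz (-1.16), Gm10052, of Hnrnpa1 (-1.05), and Gm4617, of Ptma (-0.94).

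Gm6594, the Hmgn2 copy, differed most in sequence from its parent among the 2 higher members and the 8 lower ones with the largest changes, with 92.0% identity. It had 22.9, 13.3 and 16.3 TPM in uninduced and 5.47, 3.55 and 4.06 TPM in induced libraries, and the groups did not overlap. The change was -1.77 (SE 0.306, limma adjusted p = 0.00709). For Hmgn2 the values overlapped between groups, at 11.6, 30.2 and 23.1 TPM uninduced and 17.1, 21.1 and 6.87 TPM induced, and its change of -0.53 did not pass (limma adjusted p = 0.468). The difference between copy and parent, tested for all pairs as described below, did not pass either (-1.24, SE 0.605, limma adjusted p = 0.59).

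In the class of cytoskeleton and protein folding 5 of 8 members were lower and none higher, with a median of -0.86. After median-of-ratios scaling 2 were lower, with a median of -0.46. Among all genes 10.2% were lower, and 3.1% after scaling. The lowest member of the class, Gm15459, is a copy of Hspa8, the gene of the constitutive heat-shock protein Hsc70. Gm15459 had 377, 394 and 312 TPM in uninduced libraries and 72.0, 66.0 and 69.8 TPM in induced ones, so that the groups lay far apart. The change was -2.36 (SE 0.152, limma adjusted p = 7.56e-05), the lowest among the 381 members. Hspa8 itself had 403, 444 and 323 TPM in uninduced and 261, 247 and 293 TPM in induced libraries, a change of -0.54 (SE 0.158, limma adjusted p = 0.0542).

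Gm15459 spans chr5:5781615-5783555 on the minus strand in a single exon. It overlaps an exon of the lincRNA gene Gm26825 on the opposite strand, and Gm26825 was not analysed here. Whether the counting used strand is not given in the sources used here, so reads from this partner cannot be told apart from reads of Gm15459. Identity to Hspa8 is 99.7%, and 82.3% of its 100-base stretches occur in other transcripts, 72.9% in Hspa8. A further copy of Hspa8, Gm8355, changed by -0.85 (limma adjusted p = 0.0321).

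Hspd1-ps3 copies Hspd1, the gene of the mitochondrial chaperone Hsp60. It had 36.6, 31.1 and 34.5 TPM in uninduced and 9.71, 8.21 and 8.33 TPM in induced libraries. The groups did not overlap, and the change was -1.85 (SE 0.221, limma adjusted p = 0.00181). Hspd1 moved the same way, by -1.36 (limma adjusted p = 0.00537). Gm10123 and Gm13493, copies of the cyclophilin A gene Ppia, changed by -0.86 and -0.96 (limma adjusted p = 0.0112 and 0.044).

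Energy metabolism copies, mostly of respiratory chain subunits, had 4 lower and none higher of 13, with a median of -0.38. After median-of-ratios scaling 2 were lower and the median was 0.02. Lower calls among all genes made up 10.2%, and 3.1% after scaling. Gm4459 copies Ndufab1, which encodes the mitochondrial acyl carrier protein, a subunit of complex I. It had 20.18, 20.03 and 17.22 TPM in uninduced and 5.69, 3.20 and 4.25 TPM in induced libraries, without overlap. Its change was -1.93 (SE 0.284, limma adjusted p = 0.0043), whereas Ndufab1 changed by -0.24 with overlapping groups (limma adjusted p = 0.728). The difference between this copy and its parent did not pass (-1.69, SE 0.528, limma adjusted p = 0.41). Gm2962 and Gm16089, copies of the complex III subunit gene Uqcrb, fell by 1.44 and 1.32, and Gm15920, of Ndufa12, by 1.05 on the log2 scale.

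Translation factor copies had 3 lower and 1 higher of 14, and after median-of-ratios scaling 1 lower and 1 higher, beside 10.2% lower and 1.29% higher of all genes, and 3.1% and 2.88% after scaling. So few calls in 14 members do not set the class apart. The lower ones were Gm13456, a copy of the elongation factor gene Eef1a1 (-0.58), Eif4a-ps4, of the helicase gene Eif4a1 (-1.03), and Gm4366, of Eef1g (-0.91). The higher one was Gm16378, which copies Eif1, a gene of start codon selection. It had 19.9, 10.7 and 12.9 TPM in uninduced and 27.3, 28.9 and 39.4 TPM in induced libraries, and every induced value was above every uninduced one. The change was 1.11 (SE 0.276, limma adjusted p = 0.0307). The call ended when any 1 library other than uninduced replicate 1 was left out, with changes from 0.93 to 1.21, and with no expression filter or no variance trend. Eif1 was at 125, 165 and 163 TPM in uninduced and 171, 154 and 198 TPM in induced libraries (change 0.21, limma adjusted p = 0.46).

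The other member called higher was Gm14567, on the X chromosome at chrX:38969817-38969990 on the plus strand, away from other annotated genes. It is a 174-base copy of Polr2k, which encodes a small subunit of RNA polymerases, and is identical to it. Gm14567 had 6.02, 7.65 and 8.19 TPM in uninduced and 24.8, 21.4 and 23.4 TPM in induced libraries, with a wide gap between the groups, and met the 10 TPM rule only through the induced ones. The change was 1.55 (SE 0.244, limma adjusted p = 0.00499). Polr2k was scattered within both groups, at 5.404, 20.2 and 3.66 TPM uninduced and 14.7, 2.39 and 14.3 TPM induced, with a change of 0.12 (SE 0.681, limma adjusted p = 0.93). With such spread in the parent, the difference between copy and parent of 1.43 did not pass (SE 0.700, limma adjusted p = 0.59).

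Among copies of other named genes 21 of 149 were lower (14.1%, beside 10.2% of all genes) and 1, Gm14567, was higher, and after median-of-ratios scaling 9 were lower and 2 higher. Pcna-ps2 copies Pcna, the sliding clamp of DNA replication, and had 31.1, 34.1 and 19.8 TPM in uninduced and 9.85, 7.32 and 4.51 TPM in induced libraries. The groups did not overlap, and the change was -1.85 (SE 0.324, limma adjusted p = 0.00743), beside -1.43 for Pcna (limma adjusted p = 0.00464). Gm16580 copies Pabpc1, the cytoplasmic poly(A)-binding protein gene, and lies in an intron of Luc7l on the same strand. It had 28.0, 39.6 and 20.1 TPM in uninduced and 7.41, 6.68 and 5.29 TPM in induced libraries. All induced values were below the uninduced ones, with a change of -1.98 (SE 0.295, limma adjusted p = 0.00433). Pabpc1 fell by 1.07 on the log2 scale (limma adjusted p = 0.00252), and Luc7l, a splicing factor gene, changed by -0.06 (limma adjusted p = 0.897).

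**Figure D4:**
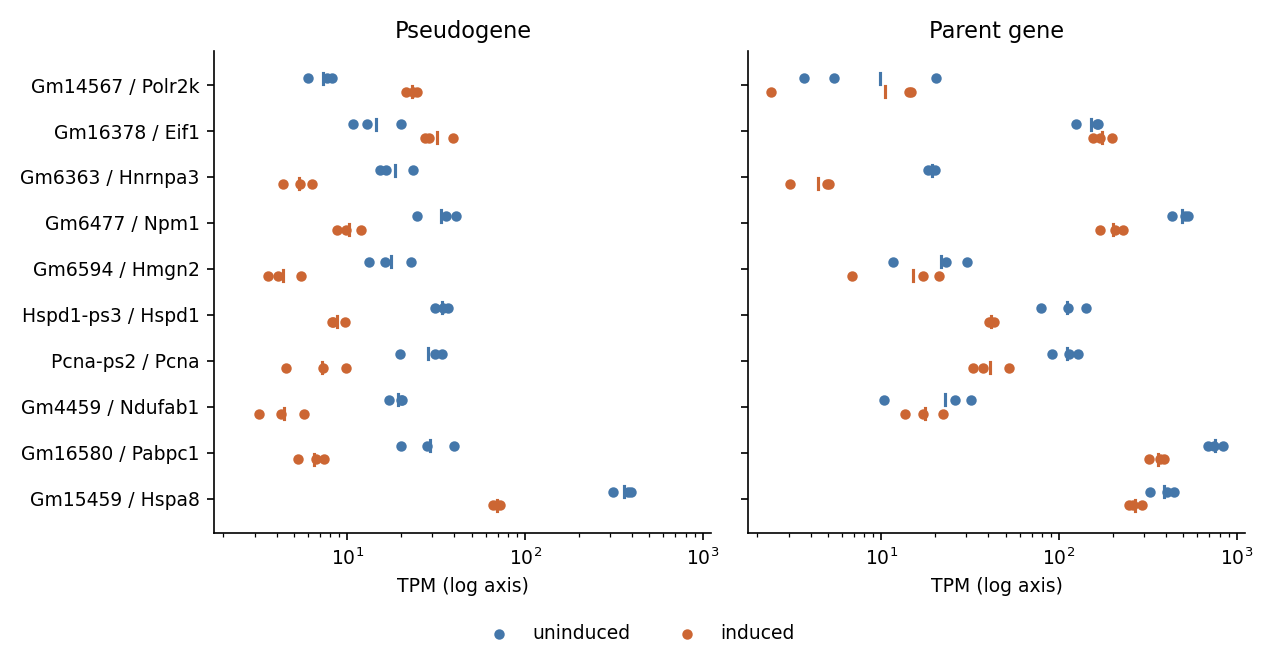
TPM in each library (log axis) of the 2 higher members and the 8 lower members with the largest changes (left) and of their parent genes (right), in the order of the pseudogenes' log2 change. Points are libraries and short lines group means (n = 3 each). The pseudogenes were chosen as called members whose groups do not overlap, and the parents were not chosen on their values, so the panels are a description and no comparison of copies with parents.

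Copies and parents were then set side by side. Among the 82 lower members 67 had a parent that was also lower. Over all 378 pairs, with a parent counted once for each copy, the parent was lower in 184. No member was called in the opposite direction to its parent. However, no parent was called higher and only 2 members were, so there was little room for opposite calls. Spearman's rho between the changes of copy and parent was 0.46, a description over pairs that share libraries and may share reads. Over the 54 pairs with identical sequence it was 0.44 and over the 85 under 98% identity 0.48. The parents, as 241 tested genes, had a median change of -0.59, with 102 lower and none higher.

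A fit of log2(TPM + 1) of the copy minus its parent in each library, chosen after seeing the data, covered 1200 pairs of processed pseudogenes and parents. It called 1 pair, or 0.0833%: Gm15459 fell below Hspa8 by 1.82 (SE 0.146, limma adjusted p = 0.00076). Without a trend of variance on level this call was lost (limma adjusted p = 0.157). In the member pairs 33 of 378 had an unadjusted p under 0.05, beside 100 of all 1200, and the next adjusted p among them was 0.192. The median difference was 0.06, and 161 differences were below 0 and 217 above.

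**Figure D5:**
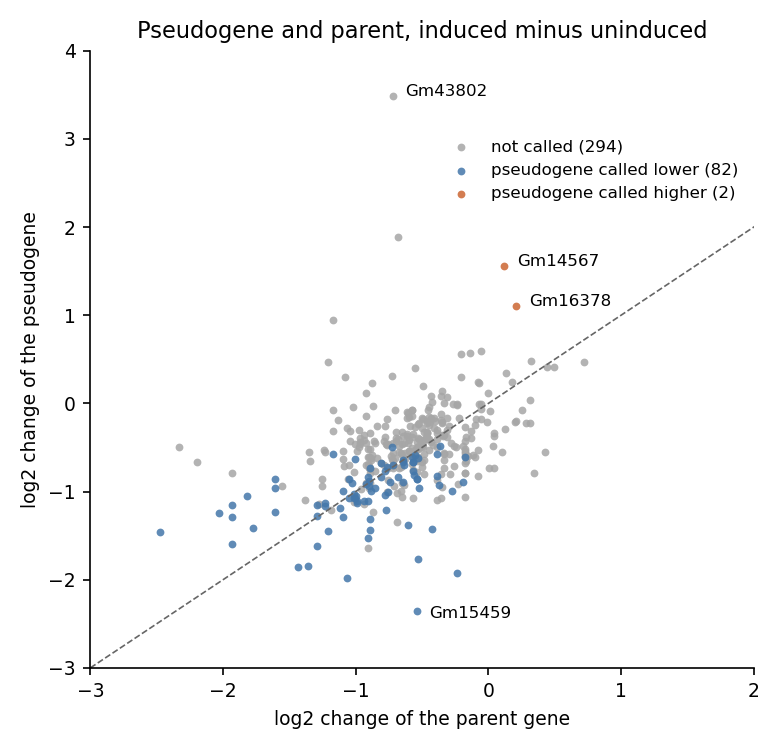
Log2 change of 378 members (vertical axis) against that of the parent gene (horizontal axis), induced minus uninduced. Each point is a pair, colours give the call of the pseudogene, and the dashed line marks equal change. Gm15459 lies below the line at -2.36 for the copy and -0.54 for Hspa8, and Gm14567 and Gm16378 lie above it.

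Families with many copies showed how far copies of a single gene spread. Rpl21 had the most, with 10 copies from 10.4 to 244 TPM and changes from -1.06 to -0.26, of which 1 was lower, while Rpl21 changed by -0.18. The 5 copies of Rpl23a ran from -0.77 to -0.61 with 3 lower, beside -0.56 for Rpl23a. In the 4 copies of the histone variant gene H3f3a the changes ran from -0.90 to 0.11 and none passed, while H3f3a itself was lower at -0.92 (limma adjusted p = 0.021). These families were chosen for description after their values were seen.

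Position relative to other genes was read from the annotation. No other gene overlapped 234 members, of which 47 were lower and 1 higher, and after median-of-ratios scaling 14 lower and 2 higher. Of the 52 members in an intron on the same strand 9 were lower and 1 higher (6 and 1 after scaling), and of the 65 in an intron on the opposite strand 18 were lower (5 after scaling). Among all genes 10.2% were lower, and 3.1% after scaling. Overlap with an exon was seen in 22 members on the opposite strand (7 lower, 2 after scaling) and 8 on the same strand (1 lower, none after scaling). The overlapping gene could be tested in 78 pairs, of which 15 had a lower member, and in none of these 15 was the overlapping gene called lower. Over all 78 pairs the overlapping gene was called lower in 2, so with 10.2% of all genes lower a count of 0 in 15 says little about these pairs.

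Libraries of a single group disagreed in Gm43802, which was chosen after its values were seen. It had 0.158, 0.189 and 0.546 TPM in uninduced and 53.5, 37.6 and 0.440 TPM in induced libraries. So 2 induced libraries were high and induced replicate 3 was at the uninduced level, and the change of 3.49 did not pass (SE 1.12, limma adjusted p = 0.0715). Gm43802 overlaps an exon of Gbp7, an interferon-induced GTPase gene, on the same strand. Its parent by alignment, Lypla1, is 77.3% identical over the aligned length. Gbp7 was at 29.2, 33.5 and 22.4 TPM in uninduced and 24.7, 21.8 and 34.5 TPM in induced libraries, so neither group stood apart.

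The cell type of the libraries was read from marker lists. All 7 stem cell markers were tested, with summed levels of 350 to 506 TPM uninduced and 455 to 491 TPM induced, 3 higher and 1 lower. Of 8 erythroid genes 7 were tested and 6 were higher, with sums of 50.01 to 57.16 TPM uninduced and 402 to 465 TPM induced, and their part in the members' change was not tested. Megakaryocyte markers summed to 81.7 to 114 TPM and 105 to 114 TPM (2 higher and 1 lower of 4 tested), and granulocyte and monocyte markers to 218 to 263 TPM and 186 to 240 TPM (none called of 5 tested). Of 5 B cell and 5 T and NK cell markers 4 each were at 0 in all libraries, among them Pax5, Ebf1, Cd79a, Cd3e, Cd3d, Trac and Cd8a. The B cell sums were 4.21 to 9.86 TPM and 3.11 to 3.86 TPM, and the T and NK cell sums, all from Nkg7, 5.84 to 15.8 TPM and 0 (Nkg7 lower, limma adjusted p = 0.00378). No B cell marker was called. Cd48, which the sort excludes, was at 0 to 3.02 TPM uninduced and 0 to 0.991 TPM induced.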

How the data were processed

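Total RNA of 6 libraries was prepared with a stranded kit for very small inputs and read as 100-base pairs, per the labels' protocols. The authors deposited 1 table in TPM with GC content in percent, per the file headers. HISAT2, StringTie, DESeq2 and GRCm38 are named in the submitters' processing notes. The annotation release, versions, strand setting and treatment of reads that match several places are not given in the sources used here. TPM keeps no depth, so no counting interval or floor can be given. Of 60496 rows 5025 repeated a gene ID, none of a processed pseudogene, and rows were summed per ID.

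The test was limma 3.58.1 (R 4.3.3) of log2(TPM + 1), with a variance trend, two-sided, Benjamini-Hochberg adjusted with a threshold of 0.05. It covered the 13470 genes whose mean reached 1 TPM. On the log2(TPM + 1) scale changes of low genes are understated. Data were simulated with 200 changed genes among 13470, drawn only from genes whose mean log2(TPM + 1) was above that of 10 TPM. The fit recovered 46.0% of log2 changes of 1 and 99.0% of log2 changes of 2. For the 1200 pairs, of which 100 were changed by 2, it was 67.0%. Median-of-ratios scaling, rescaling to protein-coding genes, quantile normalization, other pseudocounts, filters and variance models, a GC correction and a replicate block were tried, and each library was left out in turn.

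Parents were found with BLAST 2.17.0 (blastn against GENCODE M21 protein-coding transcripts, E-value limit exponent -10, best score, named genes that do not overlap the pseudogene). For 3 members a gene with no name aligned better. Named were the 8 most abundant members, and those called with groups that do not overlap, up to 8 lower and 8 higher by size of change. The values of 1 of the 8 most abundant members are not reported here. Members and lists were chosen with earlier results of these data known. Lists are described by counts and medians, with no test.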

Additional observations from a re-analysis of the deposited data

How the results depend on the processing

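Of the 381 members 84 were called. Median-of-ratios scaling gave 30, quantile normalization 31, rescaling to nuclear protein-coding genes 29, no variance trend 28, no expression filter 49, and GC correction 33. Over all genes, with 1549 called, these gave 806, 814, 809, 767, 752 and 808. Without any 1 library the members called numbered 36 to 77, and all genes called 611 to 1276. The lowest counts were without induced replicate 2, and members called also fell to 52 without uninduced replicate 2 or induced replicate 1. The median change of the members, -0.55, was -0.16 with median-of-ratios scaling, -0.16 with quantile normalization, -0.13 with rescaling to protein-coding genes and -0.19 with GC correction, alone or with the replicate block. The log2 difference of summed TPM, -0.57, became -0.16 and -0.13 under the 2 rescalings. Rps23-ps1, Tpt1-ps3 and Gm4149 turned to 0.054, 0.051 and 0.021 with median-of-ratios scaling and to 0.083, 0.080 and 0.051 with rescaling to protein-coding genes. The pairs of copy and parent that were called numbered 1, none (0) without a variance trend, with 100 of 1200 under an unadjusted p of 0.05 in the limma fit with the trend, and 1 to 2 without any 1 library.

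The labels do not say that same-numbered libraries are related, and their deviations correlated at 0.02, -0.02 and 0.02, so the numbers were not taken as pairs. With the replicate block 50 members and 902 genes were called, and with GC correction and the replicate block 22 and 559. Among the members whose values are given Gm16378, Gm9794 and Rpl19-ps11 were not called with the replicate block (limma adjusted p = 0.0594, 0.0580 and 0.0976). Gm6363 lost its call under the last of these (limma adjusted p = 0.0628; 0.0312 with GC correction alone). Of 3 libraries of each group 2 correlated best with their own number. Of 353 alternatives over 19 named results 292 kept the direction and the side of the threshold, 55 kept the direction and lost the call, and 6 reversed. Depth is unknown, so no counting error can be given for values of a few TPM. Members that share sequence with other genes have uncertain values.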
